A study of Mus musculus with 4 samples.

Results

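The genes that encode the proteins of the cytosolic ribosome were followed across Visium capture areas of mouse popliteal lymph nodes (PLNs). Members were the genes whose symbol starts with Rps or Rpl, leaving out the kinases and other proteins that share these letters and the annotated pseudogenes, with at least 200 unique molecular identifiers (UMIs, each marking 1 captured mRNA) over the 4 areas. Of the 32287 features counted, 84 symbols met the name rule and 81 were members. The 3 that did not reach the minimum were Rpl3l with 22 UMIs, Rpl39l with 13 and Rpl10l with 1. The rule itself used names and total UMIs only, and no comparison.

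All mice were male C57BL/6. WT mice were 5.5 months old (10 PLNs of 5 mice on 1 area), TNF-Tg mice with Early arthritis were 5.5 months old (6 PLNs of 3 mice on 1 area), and TNF-Tg mice with Advanced arthritis were 8.5 to 9 months old (6 PLNs of 3 mice on each of 2 areas). TNF-Tg mice carry a human TNF transgene and develop an inflammatory, erosive arthritis, and the PLN drains the ankle and knee. WT and Early were each a single area, so group and area cannot be told apart, and Advanced mice were also older. A Visium spot collects the RNA of a small disc of tissue that can hold several cells. A lower share of UMIs therefore cannot be told apart between fewer cells of a type and less RNA per cell.

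A ribosome has a small subunit, which reads the mRNA, and a large subunit, which joins amino acids. Most of its proteins are encoded by a single active gene each and are needed in near-equal amounts. Their mRNAs are among the most abundant of any cell, and many begin with a cytosine followed by a run of pyrimidines, the 5′ terminal oligopyrimidine (TOP) tract, through which their translation follows growth signals. In a lymph node, resting lymphocytes are small cells with little cytoplasm, plasma cells are filled with secretory machinery that makes antibody, and sinuses are lined by endothelium and macrophages.

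To show the feature that ribosomal protein mRNAs share, start windows were taken from RefSeq (GRCm38.p6), which held an entry for 61 of the 81 members. A cytosine at the annotated start followed directly by at least 4 pyrimidines (C or T, read on the gene's own strand) was found in 14 of the 61 members, or 23.0%, against 3.01% of all 27025 genes with an entry. An annotated start can lie several bases from the start a cell uses, so the absence of a run in a window says only that these letters are not at that base. The windows below run from 10 bases before the annotated start to 20 bases from it, 5′ to 3′ on the strand of the gene, with the run that begins at the start in capitals. Rpl35, Rps27, Rps6 and Rplp2 are shown because results below turn on them or because of their known roles. Rps27rt is shown because it is a near copy of Rps27. Rpl4 ran against most members with spot depth, and Rps27l did so in lymphoid-rich spots. Windows without a run are the more common case, as 14 of the 61 members had one, and a link between run and values was not tested.
Rpl35 (chr2:39005112-39005141, minus strand): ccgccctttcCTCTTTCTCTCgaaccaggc
Rps27 (chr3:90213629-90213658, minus strand): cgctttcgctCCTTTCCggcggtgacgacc
Rps27rt (chr9:114982720-114982749, minus strand): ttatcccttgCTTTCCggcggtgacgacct
Rps6 (chr4:86857348-86857377, minus strand): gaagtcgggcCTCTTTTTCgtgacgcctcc
Rplp2 (chr7:141447641-141447670, plus strand): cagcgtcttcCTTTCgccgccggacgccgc
Rpl4 (chr9:64173377-64173406, plus strand): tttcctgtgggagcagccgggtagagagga
Rps27l (chr9:66946076-66946105, plus strand): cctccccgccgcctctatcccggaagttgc
The runs of Rpl35 and Rps6 were 11 and 9 bases long. The Rps27 and Rps27rt windows hold the same letters after the start, offset by 1 base, and the coding sequences of these genes were identical over all 252 bases, so their UMIs could have been divided between them by the counting and both are uncertain. The other near copies that were compared were more distant. Rps27l matched Rps27 at 76.2% of aligned coding bases, Rpl22l1 matched Rpl22 at 70.9%, and Rpl36al matched Rpl36a at 87.7%. The pseudogenes Rpl9-ps6 and Rpl10-ps3 were counted with 4081 and 2421 UMIs, so Rpl9 (17604 UMIs) and Rpl10 (5821 UMIs) are uncertain in the same way. So is Rpl36a (11648 UMIs), beside the pseudogene Rpl36a-ps1 with 794 UMIs. Only chosen paralog pairs and pseudogenes whose symbol holds -ps were looked at. Copies of other members, Rpl21 and Rpl4 among them, were not searched for.

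Members together took 14.2% of all UMIs in WT, 16.4% in Early, 13.8% in Advanced 1 and 13.4% in Advanced 2. The Early area was highest and the Advanced areas lowest, and the 95% interval of each share was at most about 0.1 percentage points wide, which covers counting error only. The areas held 1808678, 5180493, 3378219 and 3198238 UMIs in the same order, in 833 to 2015 spots. Small subunit genes supplied between 44.5% and 45.0% of the members' UMIs on every area. Over the 4 areas, Rps20 (54873 UMIs), Rps24 (54384), Rplp1 (51512) and Rpl37 (43014) were among the most counted. Those counted least were Rps27l (2633), Rpl22l1 (3755), Rpl10 (5821), Rpl36al (7136) and Rps27rt (7392), which are near copies of another gene or have one. Visium tags the 3′ end of an mRNA, so these counts were not divided by gene length.

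The share depended on how many UMIs a spot held. In spots of 200 to under 500 UMIs it lay between 10.5% and 11.0% on the 4 areas. In spots of at least 10000 UMIs it was 15.0% on WT, 17.7% on Early, 15.1% on Advanced 1 and 15.2% on Advanced 2. The deeper class was higher on 4 of 4 areas, but the shallowest spots, with under 100 UMIs, went against this order with 12.4% to 15.3%. Across spots of at least 1000 UMIs the correlation of the members' share with log10 of the spot's UMIs was between 0.29 and 0.47 within an area (Pearson's r over 273 to 604 spots, which share a library and its depth). Spots at the tissue edge, with fewer than 6 neighbours under tissue, were deeper than interior spots, with medians of 2113 to 5541 UMIs against 140.5 to 250.5. Their share was higher on 4 of 4 areas, at 14.7% against 12.3% on WT, 17.6% against 12.7% on Early, 15.1% against 12.7% on Advanced 1 and 14.8% against 11.0% on Advanced 2. Within spots of 1000 to under 2000 UMIs the edge was also higher on each area, with 12.2% to 13.0% against 10.5% to 11.9%, as it was in the 2 classes between 2000 and 10000 UMIs. In spots of at least 10000 UMIs it was higher on WT, Early and Advanced 1, while on Advanced 2 the 4 interior spots held 16.1% against 15.2% at the edge.

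**Figure D1:**
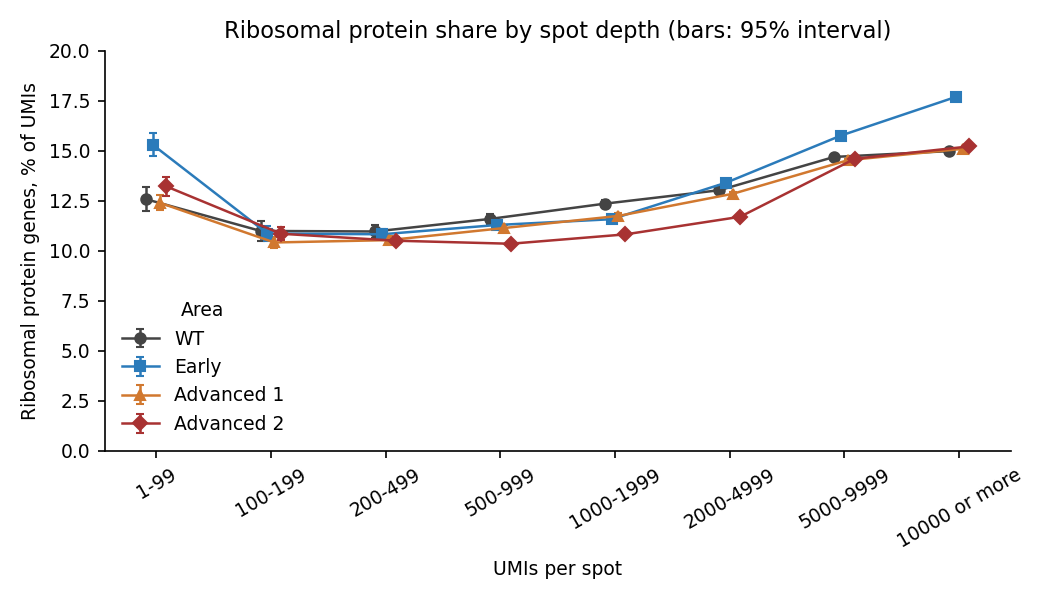
Share of UMIs on the 81 ribosomal protein genes (y axis, %) in spots grouped by their number of UMIs (x axis), 1 line per capture area, bars giving the 95% interval for counting error. Shares lie at 10.5% to 11.0% in spots of 200 to under 500 UMIs and at 15.0% to 17.7% in spots of at least 10000 UMIs, where the Early area lies above the other areas.

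This difference with depth was spread over most members, and 1 gene went against it. Between spots of 1000 to under 2000 UMIs and those of at least 10000 UMIs, 63 of 81 members were higher in share on 4 of 4 areas, against 12.1% of the 4484 genes with enough counts. The median over members of the mean log2 difference was 0.46, against -0.19 over these genes. Rpl35, a large subunit protein at the exit of the peptide tunnel, had the largest mean log2 difference, 1.30 ± 0.20 (SD, n = 4 areas). It took 3.97, 4.74, 3.10 and 3.91 of every 10000 UMIs in the shallower class on WT, Early, Advanced 1 and Advanced 2, and 8.84, 13.2, 8.53 and 8.32 in the deeper class. These values do not overlap between the classes. Rps27, a zinc-finger protein of the small subunit, was higher by 1.11 ± 0.38, Rpl41, the smallest protein of the ribosome, by 1.09 ± 0.16, and Rps29 by 1.05 ± 0.29 (n = 4 areas each).

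Rpl4, a large subunit protein whose long loop reaches into the peptide tunnel, was the 1 member lower on 4 of 4 areas, by -1.17 ± 0.30. It went from 33.0 to 14.2 of every 10000 UMIs on WT, from 49.3 to 18.3 on Early, from 26.8 to 16.0 on Advanced 1 and from 36.2 to 14.9 on Advanced 2. Rpl4 has the longest coding sequence of the members, 1257 bases, and Rpl41 the shortest, 75 bases. Over the 81 members the depth difference and the log2 coding length had a Pearson's r of -0.57 (Spearman's rho -0.50), a description across genes, which are not independent replicates.

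**Figure D2:**
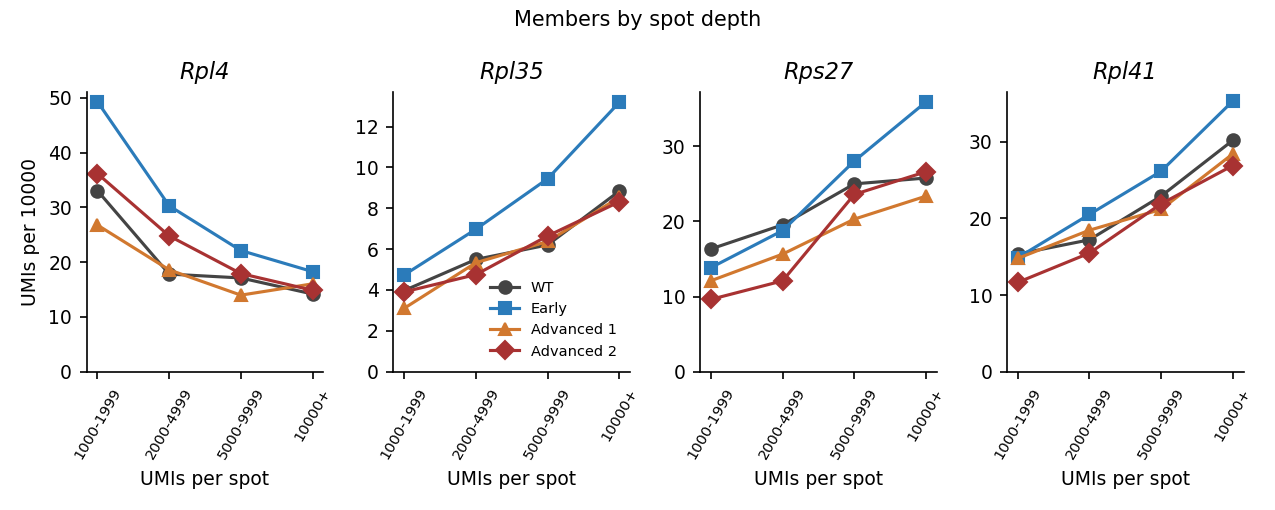
UMIs of 4 members per 10000 UMIs of the spot class (y axis, from 0, scale differs between panels) against UMIs per spot (x axis), 1 line per capture area. Rpl4 is lower in the deepest spots on each area, at 14.2 to 18.3, while Rpl35, Rps27 and Rpl41 are higher there.

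To ask where in the node the members were high, spots of at least 1000 UMIs were ranked within each area by their share of UMIs on a gene list. The lymphoid list held 33 B cell, T cell and pan-lymphocyte genes, and the sinus list 20 genes of macrophages and lymphatic endothelium. The plasma cell list held 10 genes, Jchain and the IgG, IgA, kappa and lambda constant genes, without Ighm, Ighd and Ighe. The highest and lowest of 3 equal parts were compared. Spots numbered 273 on WT, 601 on Early, 579 on Advanced 1 and 604 on Advanced 2. These were 32.8%, 40.4%, 28.7% and 33.9% of the spots of each area and held 89.9% to 96.5% of its UMIs. Interior spots made up 30.8%, 36.9%, 66.8% and 53.1% of them, against 69.6%, 67.9%, 84.4% and 77.4% of all spots. The classes therefore describe the deeper spots, in which edge spots are over-represented. By this choice the lymphoid genes took 1.37% to 1.66% of UMIs in lymphoid-rich spots and 0.49% to 0.78% in lymphoid-poor ones, which describes the classes and is no finding. The classes are not independent: 57.5% to 71.6% of an area's lymphoid-rich spots were also sinus-poor, and 4.40% to 12.4% of its plasma-rich spots were lymphoid-rich. Interior spots made up 56%, 82.9% and 72.1% of sinus-rich spots on Early, Advanced 1 and Advanced 2, against 19.5%, 48.2% and 30.3% of sinus-poor spots. On WT the order was reversed (20.9% against 39.6%). Plasma-rich spots were more often interior on each area (37.4% to 79.8% against 27% to 50.3%). Lymphoid-rich spots were so on WT only (38.5% against 27.5%, elsewhere 25.5% to 56.5% against 51% to 70.5%). Class and edge position were not separated.

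Lymphoid-rich spots held more ribosomal protein UMIs on WT (17.5% against 11.8%), Early (17.2% against 14.7%) and Advanced 2 (15.8% against 11.4%), and not on Advanced 1 (13.9% against 14.2%). The mean log2 ratio of rich to poor was 0.31 ± 0.26 (SD, n = 4 areas). Leaving out 1 area at a time it ran from 0.22 without WT to 0.42 without Advanced 1. Immunoglobulin genes took 2.36% to 3.42% of the UMIs of lymphoid-rich spots and 6.14% to 13.3% of those of lymphoid-poor spots. With these genes left out of the total the ratio was 0.19. With them kept and spots ranked within 5 depth classes of equal spot numbers, the ratio was 0.37 ± 0.25. Rich spots were then higher on WT, Early and Advanced 2, and by little on Advanced 1 (14.16% against 14.05%). Plasma-rich spots were lower on 4 of 4 areas, at 12.5% against 16.4% on WT, 14.6% against 18.4% on Early, 13.2% against 15.3% on Advanced 1 and 12.1% against 15.1% on Advanced 2, a mean log2 ratio of -0.31 ± 0.08. Here immunoglobulin genes took 9.09% to 16.5% of the UMIs of the rich class and 1.62% to 2.56% of the poor class, and without them the ratio was -0.13, less than the main value by more than the spread between areas. Sinus-rich spots were also lower on each area, at 12.6% against 16.4%, 14.7% against 18.6%, 14.2% against 14.6% and 11.3% against 15.7% in the same order, a mean log2 ratio of -0.31 ± 0.19 that ran from -0.25 without Advanced 2 to -0.40 without Advanced 1. With immunoglobulin genes in the total, the lymphoid and sinus differences on Advanced 1 were near 0, at -0.02 and -0.04, while the plasma cell difference was -0.21. Without these genes lymphoid-rich spots were lower on Advanced 1 (14.37% against 15.57%) and still higher on WT, Early and Advanced 2. Across spots, Pearson's r of the members' share with the lymphoid share was 0.28, 0.04, -0.16 and 0.31 in the same order. With the sinus share it was -0.35, -0.28, 0.09 and -0.31.

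**Figure D3:**
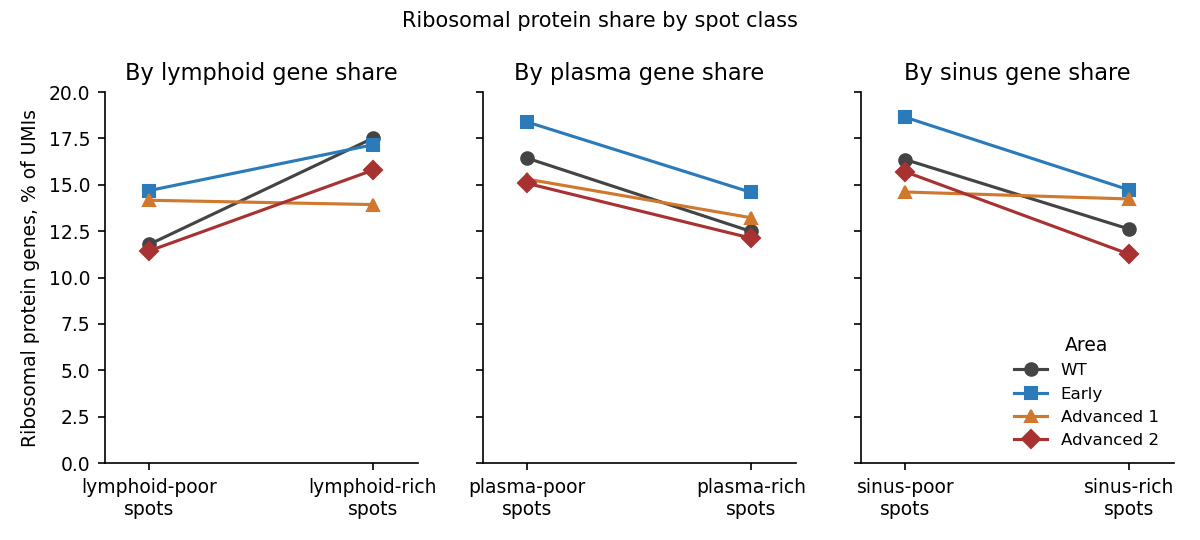
Share of UMIs on the 81 ribosomal protein genes (y axis, %) in the spots poorest and richest in lymphoid, plasma cell or sinus genes (x axis), 1 line per capture area. Rich spots are lower on each area for plasma cell and sinus genes, at 12.1% to 14.6% against 15.1% to 18.4% in the plasma panel, and the lymphoid line of Advanced 1 is flat, from 14.2% to 13.9%.

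Gene by gene, 7 of 81 members were higher and 1 was lower in lymphoid-rich spots, while 73 did not pass the test. Over all 10056 genes tested 12.1% were called higher and 16.2% lower, so the members' shares of 8.64% and 1.23% were under the background. The median log2 difference was 0.13 over members and 0.00 over all genes, on counts scaled by the trimmed mean of M-values (TMM). Members higher in share of UMIs on 4 of 4 areas numbered 29 of 81, against 29.3% of all genes, and 1 was lower on 4 of 4, against 15.4%. The 7 were led by Rpl4, Rpl21 and Rps4x, with Rps3a1, Rps24, Rpl6 and Rpl29 after them.

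Rpl21 (chromosome 5, 146832890 to 146837032 in GRCm38), a large subunit protein, took 34.6, 46.2, 35.5 and 38.7 of every 10000 UMIs in the lymphoid-rich class (in the order WT, Early, Advanced 1, Advanced 2), and 18.5, 25.5, 21.0 and 20.3 in the lymphoid-poor class. The lowest rich value was above the highest poor value. Its log2 difference was 0.71 (standard error, SE, 0.14, adjusted p = 0.000657, edgeR). Rpl4 (chromosome 9, 64173375 to 64178666) took 26.0, 30.7, 22.4 and 25.5 in lymphoid-rich and 12.6, 15.5, 13.1 and 16.1 in lymphoid-poor spots, also without overlap. The log2 difference of Rpl4 was 0.71 (SE 0.14, adjusted p = 0.000619, edgeR). Rps4x, the X-linked form of a small subunit protein, took 30.7, 30.6, 25.0 and 28.6 against 16.6, 19.9, 20.3 and 16.1, a log2 difference of 0.51 (SE 0.15, adjusted p = 0.0121, edgeR). Its call was lost without Advanced 2, Early or WT (adjusted p of 0.0988, 0.0898 and 0.0515, edgeR), with log2 differences of 0.46, 0.51 and 0.45. On Advanced 1, where the members' summed share was not higher in lymphoid-rich spots, these 3 genes were.

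Rps27l, a paralog of Rps27 that is known as a p53 target, went the other way. It took 1.81, 1.71, 1.71 and 1.31 of every 10000 UMIs in lymphoid-rich spots and 3.22, 2.39, 2.00 and 2.06 in lymphoid-poor spots, and was lower in the former on 4 of 4 areas. Its log2 difference was -0.68 (SE 0.14, adjusted p = 0.000668, edgeR), where Rps27 gave 0.20 (adjusted p = 0.425, edgeR). Lymphoid-poor spots were deeper by their median on each area (3147 to 8062 UMIs against 2634 to 3965). When spots were instead ranked within 5 depth classes holding equal numbers of spots, 8 members were called higher and 1 lower. The rich spots were then the deeper by their median on each area (3177 to 5561 UMIs against 2908.5 to 5313.5). By summed UMIs the poor class was still the larger on each area, at equal spot numbers. It held 645610, 1734307, 1067378 and 1005446 UMIs against 512006, 1622810, 937719 and 861014 (WT, Early, Advanced 1, Advanced 2). Without this ranking, the count of members called rested on single areas: it was 25 members without Advanced 1, 3 without Advanced 2, 3 without Early and 4 without WT.

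**Figure D4:**
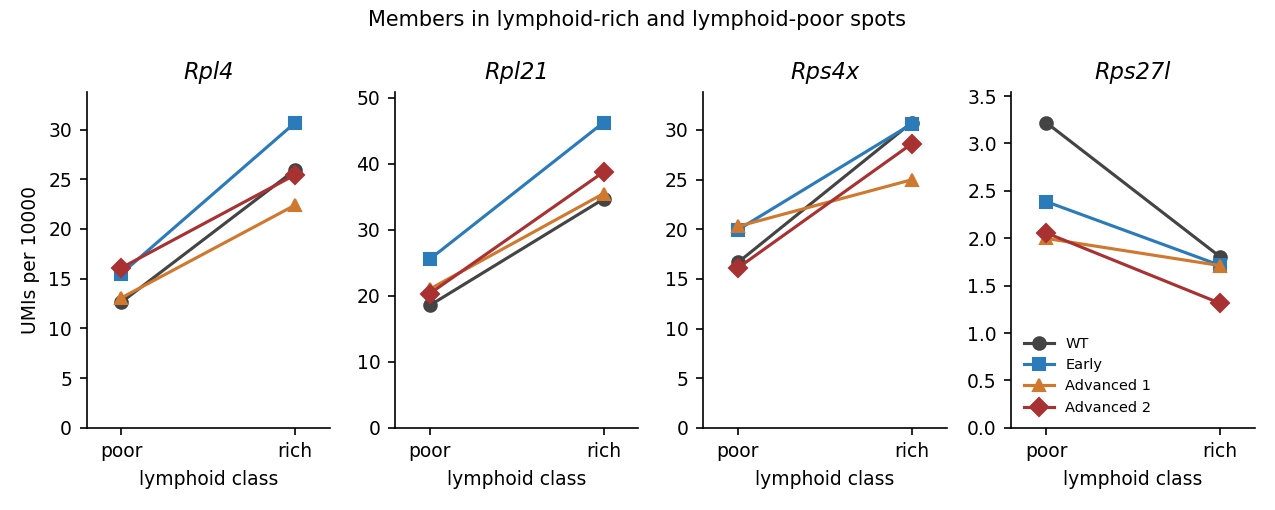
UMIs per 10000 (y axis, from 0, scale differs between panels) of the 3 members with the largest higher difference and of the 1 called lower, in lymphoid-poor and lymphoid-rich spots (x axis), 1 line per capture area. Rpl21 lies between 18.5 and 25.5 in poor and between 34.6 and 46.2 in rich spots, and Rps27l is lower in rich spots on each area.

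In plasma-rich spots 13 of 81 members were lower, or 16.0% against a background of 4.38% of 10128 genes, and 0 were higher (6.15% of all genes). Beside that 0 from edgeR, 2 members were higher at an unadjusted p under 0.05, and DESeq2 called 0. The median log2 difference was -0.14 over members and 0.00 over all genes, and 58 of 81 members were lower in share of UMIs on 4 of 4 areas, against 24.6% of all genes. Rpl21 was lowest, with 16.5, 23.8, 19.0 and 22.9 of every 10000 UMIs in plasma-rich and 35.1, 41.7, 37.8 and 37.7 in plasma-poor spots, in the same order. These values do not overlap, and the log2 difference was -0.74 (SE 0.11, adjusted p = 7.2e-05, edgeR). Rpl29, a small basic large subunit protein, followed with -0.52 (SE 0.11, adjusted p = 0.00454, edgeR), and Rpl4 with -0.51 (SE 0.11, adjusted p = 0.00452, edgeR). The 13 called were 9 large and 4 small subunit genes. The count depended on which genes marked the plasma cells. With 13 plasma cell genes that encode no immunoglobulin (Mzb1, Sdc1, Xbp1 and others) 3 members were called lower, and with these genes and spots ranked within the 5 depth classes edgeR called 0 (17 lower and 1 higher at an unadjusted p under 0.05). With those genes the values of Rpl21, Rpl29 and Rpl4 were -0.34, -0.33 and -0.18, and Rpl4 was no longer called (adjusted p = 0.393, edgeR). It was also 4 without Advanced 1 and 6 without Early.

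In sinus-rich spots 17 of 81 members were lower, or 21.0%, against 10% of 10108 genes, and 0 were higher, against 13.1% of all genes. At an unadjusted p under 0.05 edgeR found 1 higher, and DESeq2 called 0. The median log2 difference was -0.25 over members and -0.01 over all genes. Members lower in share of UMIs on 4 of 4 areas numbered 36 of 81, against 21.7% of all genes. Rpl21 took 21.1, 27.1, 20.1 and 19.8 of every 10000 UMIs in sinus-rich and 31.0, 46.2, 38.1 and 40.5 in sinus-poor spots, without overlap, a log2 difference of -0.77 (SE 0.14, adjusted p = 0.000176, edgeR). Rpl4 differed by -0.69 (SE 0.13, adjusted p = 0.000327, edgeR) and Rps4x by -0.56 (SE 0.13, adjusted p = 0.00288, edgeR), which was not called without Early (-0.53, adjusted p = 0.0593, edgeR). Rps27l had the highest value of the 81 members, 0.32, which did not pass (adjusted p = 0.103, edgeR). The number called was 40 without Advanced 1, 3 without Advanced 2 and 2 without Early. Since the same spots make up much of the sinus-rich and lymphoid-poor classes, these are not separate lines of evidence.

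**Figure D5:**
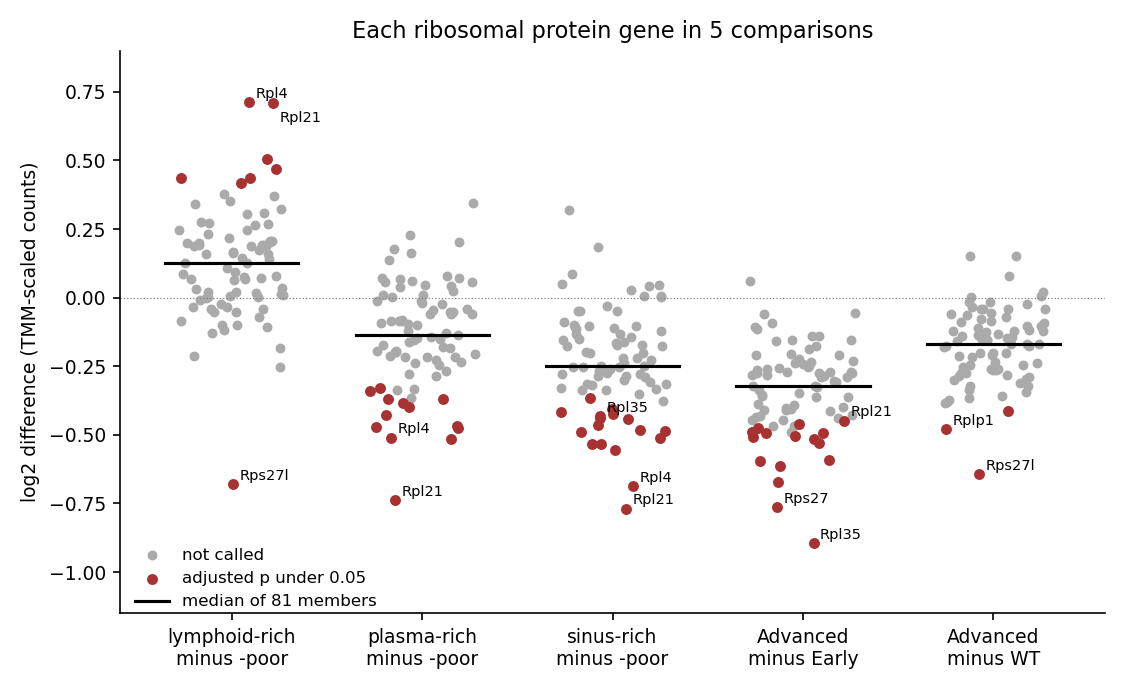
Log2 difference of each of the 81 members (points, y axis) in the 5 tested comparisons (x axis), with the members that passed an adjusted p of 0.05 in red and the median as a bar. Medians are 0.13, -0.14, -0.25, -0.32 and -0.17 from left to right, and Rpl21 is lowest of the members in the plasma-rich and sinus-rich comparisons, at -0.74 and -0.77.

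For the comparison of groups, the UMIs of all spots of an area were summed. Only the 2 Advanced areas gave replicate spread (1 residual degree of freedom), so the lone WT and Early areas were assumed to vary like them. edgeR also moderated each gene's spread with an estimate shared over all genes tested. The adjusted p-values below rest on that shared estimate as well as on the 2 areas. In Advanced against Early, 16 of 81 members were lower, or 19.8% against 0.668% of 12418 genes. None was higher (0.54% of all genes were). The edgeR count of 0 higher was also 0 at an unadjusted p under 0.05 and by DESeq2. The median log2 difference was -0.32 over members and 0.01 over all genes, and 76 of 81 members were lower in share of UMIs on both Advanced areas, against 24.7% of all genes, and 1 was higher on both, against 43.2%. Rpl35 took 11.2 of every 10000 UMIs in Early, 6.47 and 6.21 in Advanced, and 7.04 in WT, and the log2 difference was -0.90 (SE 0.15, adjusted p = 9.1e-07, edgeR). For Rps27 the levels were 31.0 in Early, against 19.1 and 19.4 in Advanced and 23.0 in WT, a difference of -0.76 (SE 0.13, adjusted p = 1.7e-06, edgeR). Rpl10, which is X-linked and sits near the catalytic centre, went from 5.38 to 3.55 and 3.55, beside 3.87 on WT, a difference of -0.67 (SE 0.16, adjusted p = 0.00568, edgeR). In each of these 3 genes Early stood above the other 3 areas. The other called members included Rpl41, Rpl36a, Rps29 and Rps21, and Rps27rt was the 1 member with a value above 0, at 0.06 (adjusted p = 0.992, edgeR).

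The size of this difference varied with spot depth. Early had the deepest spots, with a median of 5458 UMIs among spots of at least 1000 UMIs against 3027 to 3558 on the other areas. In spots of 1000 to under 2000 UMIs the members' share was 11.6% in Early, 11.7% and 10.8% in Advanced, and 12.4% in WT. In spots of at least 10000 UMIs it was 17.7% in Early, against 15.1% and 15.2% in Advanced. Over the 4 depth classes from 1000 UMIs up, the median log2 difference of the members was -0.03, -0.13, -0.11 and -0.24, and edgeR called 0 members in each, with 1, 1, 7 and 23 lower at an unadjusted p under 0.05. Without the split into classes the values were closer to the main median of -0.32. In all spots of at least 1000 UMIs the median was -0.30 and 2 members were called, in edge spots it was -0.29 and edgeR called 0 (38 lower at an unadjusted p under 0.05), and by DESeq2 on all spots it was -0.32 with 0 called (17 lower). In interior spots the median was -0.13 and edgeR called 0 (2 lower). Members with longer coding sequences had values nearer to 0 (Pearson's r 0.50 with log2 coding length, a description across the 81 genes).

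In Advanced against WT, 3 of 81 members were lower, or 3.70% against 1.47% of 12418 genes, and 0 were higher (0.805% of all genes), which was also 0 at an unadjusted p under 0.05 in edgeR and by DESeq2. The median log2 difference was -0.17, against 0.01 over all genes. On both Advanced areas 47 members were lower in share of UMIs and 19 higher, where 25% and 48.7% of all genes were. Rplp1, a protein of the acidic stalk that recruits translation factors, took 45.8 of every 10000 UMIs on WT, 38.2 on Early, 37.1 on Advanced 1 and 34.1 on Advanced 2, a log2 difference of -0.48 (SE 0.12, adjusted p = 0.00578, edgeR). Rps27l took 2.46 in WT, 2.06 in Early, and 1.82 and 1.58 in Advanced, a difference of -0.64 (SE 0.18, adjusted p = 0.024, edgeR). Rps29, a zinc-binding small subunit protein, differed by -0.41 (SE 0.13, adjusted p = 0.0491, edgeR). In edgeR with total UMIs as the scale 0 members were called (3 lower at an unadjusted p under 0.05), as in edge spots (4 lower and 1 higher) and interior spots (1 lower), and by DESeq2 (2 lower). Early and WT were 1 area each and were not tested. Between them 71 of 81 members had a higher share of UMIs on Early, with a median log2 difference of 0.22, where 54.4% of all genes were higher with a median of 0.04.

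Among members singled out for their roles, the stalk proteins, which bind translation factors, gave small or mixed values in the regional comparisons. Rplp0 had log2 differences of -0.04, 0.05 and -0.05 in lymphoid-rich, plasma-rich and sinus-rich spots, Rplp1 of -0.25, 0.23 and 0.18, and Rplp2 of 0.07, -0.04 and -0.16, and none of the 3 passed the test. Rplp1 was higher in sinus-rich spots on Early (40.2 against 36.4) and Advanced 1 (45.1 against 29.5) and lower on WT (41.8 against 45.1) and Advanced 2 (32.4 against 35.1). Of the proteins that carry the 5S RNA into the large subunit, Rpl11 was lower in plasma-rich (-0.34, adjusted p = 0.0455, edgeR) and sinus-rich spots (-0.48, adjusted p = 0.00821, edgeR), and Rpl5 gave -0.24 and -0.31 without passing. Rpsa, which also acts as a laminin receptor, and Rps6, the target of the kinase that follows nutrient signals, passed in none of the 5 comparisons. Their values in Advanced against Early were -0.09 and -0.11.

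For paralogs each gene's own values are given, and the difference between partners was not tested. Rpl22 was lower in sinus-rich spots (-0.42, adjusted p = 0.0263, edgeR) and on Advanced against Early (-0.49, adjusted p = 0.0425, edgeR). Rpl22l1, which can replace it, gave -0.20 and -0.44 and did not pass. Rpl36a was lower in plasma-rich (-0.47, adjusted p = 0.00881, edgeR) and sinus-rich spots (-0.49, adjusted p = 0.00762, edgeR) and on Advanced against Early (-0.60, adjusted p = 0.00894, edgeR), where Rpl36al gave 0.14, 0.01 and -0.27 and did not pass.

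Outside the members, the genes whose levels went most with the members' share from spot to spot were Fau (mean within-area Pearson's r 0.51 over 273 to 604 spots), mt-Co3 (0.49), mt-Atp6 (0.46), Gm11808 (0.45) and Eef1a1 (0.45), of 964 genes with enough counts. Fau encodes a small subunit protein fused to a ubiquitin-like domain, so it belongs to the ribosome without bearing an Rps symbol. Eef1a1 brings aminoacyl-tRNA to the ribosome, and mt-Co3 and mt-Atp6 are mitochondrially encoded subunits of the respiratory chain and ATP synthase. The small and large subunit shares went together with r of 0.87 to 0.94 within an area. These correlations describe spots that share a library and its depth.

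Of the 26 translation factors and companion mRNAs, 4 were higher and 0 lower in lymphoid-rich spots, 0 were higher and 3 lower in plasma-rich spots, and 0 were higher and 7 lower in sinus-rich spots. Of all genes 12.1% were higher in lymphoid-rich, 4.38% lower in plasma-rich and 10% lower in sinus-rich spots. In the directions of 0, 16.2% of all genes were lower in lymphoid-rich, and 6.15% and 13.1% were higher in plasma-rich and sinus-rich spots. At an unadjusted p under 0.05 edgeR gave 0 in each of these directions of 0, as did DESeq2. Eif4a2, an RNA helicase of translation initiation, had the largest value in lymphoid-rich spots, 0.55 (SE 0.13, adjusted p = 0.00245, edgeR), and -0.55 in sinus-rich spots (adjusted p = 0.00247, edgeR), where Eif4b followed with -0.48 (adjusted p = 0.00885, edgeR). In plasma-rich spots Naca gave -0.37 (adjusted p = 0.0394, edgeR). Fau gave 0.43, -0.43 and -0.48 in the 3 regional comparisons (adjusted p of 0.0359, 0.00729 and 0.00885, edgeR), the direction of the median member in each. On Advanced against Early 2 of the 26 were lower, where 0.668% of all genes were, Fau among them by -0.41 (adjusted p = 0.047, edgeR). On Advanced against WT 1 was lower, where 1.47% of all genes were. This was Tpt1, by -0.44 (adjusted p = 0.0328, edgeR), with Eif1 at -0.34 (adjusted p = 0.363, edgeR).

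Of the 40 genes of ribosome assembly in the nucleolus, 3 were higher in lymphoid-rich spots, a share under the 12.1% of all genes. Among them were Nop56, a core protein of the particles that guide rRNA methylation (0.64, adjusted p = 0.00186, edgeR), and Mak16 (0.60, adjusted p = 0.00968, edgeR). In sinus-rich spots 4 were lower, the same share as the 10% of all genes, Mak16 by -0.57 (adjusted p = 0.016, edgeR) among them, while Dkc1, at -0.61, did not pass (adjusted p = 0.128, edgeR). The largest values that did not pass in plasma-rich spots were those of Nop58 (0.54) and Nop56 (-0.42), and between the groups those of Polr1b (-0.46) and Eif6 (-0.38) on Advanced against Early and of Rrn3 (0.77) and Heatr1 (-0.71) on Advanced against WT. In plasma-rich spots and between the groups edgeR called 0 of the 40, with 1 higher and 1 lower at an unadjusted p under 0.05 in plasma-rich spots, 1 lower on Advanced against Early, and 1 higher and 3 lower on Advanced against WT, where DESeq2 also called 0. The shares over all genes were 6.15% higher and 4.38% lower in plasma-rich spots, and 0.54% to 1.47% in either direction between the groups. Of the 78 mitochondrial ribosome genes, 4 were higher and 2 lower in lymphoid-rich, 1 lower in plasma-rich and 5 lower in sinus-rich spots, each a smaller share than that of all genes in the same direction (12.1%, 16.2%, 4.38% and 10%). In lymphoid-rich spots Mrps2 was lower by -0.79 (adjusted p = 0.0495, edgeR) and Mrps22 gave -0.72 without passing. Mrpl24 was lower in plasma-rich (-0.53, adjusted p = 0.0144, edgeR) and sinus-rich spots (-0.65, adjusted p = 0.00064, edgeR), and Mrpl18 gave -0.51 without passing in the former and was lower by -0.68 in the latter (adjusted p = 0.0109, edgeR). Between the groups edgeR and DESeq2 called 0 of them, with 5 lower on Advanced against Early and 1 lower on Advanced against WT at an unadjusted p under 0.05. Their largest values were those of Mrpl55 (-0.65) and Mrps36 (-0.55) on the former and of Mrps31 (-0.64) and Mrpl49 (0.52) on the latter. Their median on Advanced against Early was -0.14, beside -0.32 for the cytosolic members. In lymphoid-rich, plasma-rich and sinus-rich spots the mitochondrial ribosome medians were -0.007, -0.15 and -0.05. Those of the ribosome assembly genes were 0.12, -0.03 and -0.19, beside 0.13, -0.14 and -0.25 for the cytosolic members. The mitochondrial ribosome was thus near the members in plasma-rich spots only, and the assembly genes were near them in lymphoid-rich and sinus-rich spots. Differences between lists were not tested.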

How the data were processed

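RNA of PLN sections on 4 Visium capture areas of 1 slide was counted as UMIs per gene and spot. The deposited counts were made by the authors with Space Ranger 1.1.0 on mm10, per the submitters' processing notes, and carry no normalization. They were summed per area, or per area and spot class, because spots are not replicates.

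Genes with a mean of at least 10 UMIs per sum were tested with edgeR 4.0.16 (quasi-likelihood F test, TMM scaling, two-sided, Benjamini-Hochberg adjustment over all genes), with the area as a block for spot classes because both sums come from the same area. A member was called at an adjusted p under 0.05. R 4.3.3 and DESeq2 1.42.0 (an alternative) were used. Shares carry 95% intervals for counting error. Gene positions and coding sequences came from GENCODE M21. In each comparison the 3 called members with the largest value in each direction were named, with the most and least counted members, paralogs, and members of known roles. The members and lists were chosen with earlier results of these data known. Depth-matched group fits were added after seeing the data. Some named genes are not reported here.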

Additional observations from a re-analysis of the deposited data

How the results depend on the processing

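With area left out as a replicate block, the members called in lymphoid-rich, plasma-rich and sinus-rich spots numbered 5, 1 and 7 in place of 8, 13 and 17. With total UMIs in place of TMM they numbered 21, 39 and 26, and 5 and 0 for Advanced against Early and WT. That scaling moved the median of all genes to 0.14 in lymphoid-rich and -0.14 in plasma-rich spots and to 0.12 in Advanced against WT, and the share of all calls that were higher to 62.2%, 29.7% and 56.8% from 42.7%, 58.4% and 35.3%, and in Advanced against Early to 65.2% from 44.7%. Relative to the median of all genes the members' median was 0.14, -0.15, -0.25, -0.33 and -0.18 in the 5 comparisons, and 0.13, -0.13, -0.24, -0.33 and -0.18 with TMM. Leaving out 1 area at a time gave 3 to 25, 4 to 9 and 2 to 40 members in lymphoid-rich, plasma-rich and sinus-rich spots, with Rpl4 and Rpl21 called in each such fit of the lymphoid and sinus comparisons.

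In plasma-rich spots DESeq2 called 8 members, plasma cell genes without immunoglobulins gave 3, and these with spots ranked within 5 depth classes, added after seeing the data, gave 0 and a log2 share ratio of -0.22, where the ratio without immunoglobulin genes was -0.13. For Advanced against Early, 33 members were called without immunoglobulin genes, 2 in spots of at least 1000 UMIs, and 0 by DESeq2, in edge spots, in interior spots and in each of the 4 depth classes. The log2 share ratio of -0.27 was -0.24 in edge spots and -0.25 in spots of at least 1000 UMIs, and became -0.10 in interior spots, -0.22 without immunoglobulin genes, and -0.038, -0.13, -0.11 and -0.22 in spots of 1000 to under 2000, 2000 to under 5000, 5000 to under 10000 and at least 10000 UMIs. For Advanced against WT, 5 members were called without immunoglobulin genes, 1 in spots of at least 1000 UMIs, and 0 by DESeq2, in edge or interior spots and in each depth class (3, 0, 1 and 5 lower at an unadjusted p under 0.05 in edgeR from the shallowest class up), and the share ratio of -0.06 became 0.025 in edge spots, 0.017 in spots of at least 10000 UMIs, -0.13 in spots of 1000 to under 2000 and -0.013 in spots of 5000 to under 10000 UMIs. The cause of these changes was not tested. With 1 area in WT and in Early, leaving out an Advanced area leaves no residual degrees of freedom, so those fits have no test. Other settings kept each count within 1.5 times.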
